A study of Mus musculus with 8 samples.

Results

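Large intergenic non-coding RNAs (lincRNAs) are long transcripts from stretches of the genome between protein-coding genes. Many are spliced and polyadenylated like messenger RNAs, are made at low levels and are restricted to few tissues; some act on genes close to the site where they are made and others on distant ones, and for most no function is known. The array carries, beside its gene probes, 60-base probes in regions taken as intergenic in the mouse genome (build mm9), many on both strands. Each such feature is named by the chromosome, start and end of the region and by F for the forward or R for the reverse strand, and is called a region strand below. A region strand counted as expressed when at least 1 of its probes was well above background, by the scanner software's own flag, on 4 or more of the 8 arrays. By that rule 3392 of 4606 region strands (73.6%) were expressed, in 2675 of 3539 regions. For 464 of the expressed region strands the region holds the probe of a measured named gene, on the same strand for 271. Such a region strand may read the gene's own transcript, which was not tested. The region of LeXis itself was left out of all counts.

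The arrays were hybridised with liver RNA of bl6 mice, 12 weeks old and on a chow diet, taken on day 6 after an adenovirus: 4 samples had AdLeXis, which carries the lincRNA LeXis, and 4 had AdGFP, the control virus for green fluorescent protein. The mice of both groups therefore carried an adenovirus, and no group without one was analysed here. A free-text field on treatment mentions other vectors (a control and one that targets Raly), so grouping followed the tag that names AdGFP or AdLeXis, as the titles and series design also do. The labels do not say that a group's samples came from separate animals, and the spread behind each p-value may therefore be technical. All values below are log2 of the processed signal after scaling each array on its 75th percentile, and a difference is AdLeXis minus AdGFP. A difference is said to be called when its adjusted p (limma, Benjamini-Hochberg over the 23926 genes tested) is under 0.05, and rose or fell is written only of called differences.

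The results turn on the region strands whose probes are printed here, 5' to 3', so that the sequence each measurement rests on can be seen; capitals mark AATAAA, the hexamer of the polyadenylation signal. The first 5 rose in AdLeXis samples, and the probes of the chromosome 6 pair overlap by 53 identical bases, so they are close to repeat readings of 1 transcript.
chr9:4260788-4261404_F: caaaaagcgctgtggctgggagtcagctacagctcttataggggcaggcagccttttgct
chr4:149445201-149445902_F: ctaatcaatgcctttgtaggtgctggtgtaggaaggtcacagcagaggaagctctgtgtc
chr6:134875724-134931975_F: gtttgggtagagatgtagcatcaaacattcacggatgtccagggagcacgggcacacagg
chr6:134879009-134880130_F: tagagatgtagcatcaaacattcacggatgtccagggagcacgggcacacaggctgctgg
chr1:135956616-135957485_R: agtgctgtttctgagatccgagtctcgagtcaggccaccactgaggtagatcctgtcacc

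The next 5 fell. The chromosome 17 pair lies in overlapping regions, and its probes are separated by 37 bases.
chr4:116790373-116797823_R: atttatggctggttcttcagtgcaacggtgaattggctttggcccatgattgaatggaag
chr2:119697845-119719245_F: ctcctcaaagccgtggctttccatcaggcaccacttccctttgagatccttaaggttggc
chr17:32044823-32045974_R: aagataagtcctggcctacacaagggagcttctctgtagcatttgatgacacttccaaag
chr17:32035750-32056000_R: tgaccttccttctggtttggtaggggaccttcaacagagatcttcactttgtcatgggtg
chr14:105497388-105511063_F: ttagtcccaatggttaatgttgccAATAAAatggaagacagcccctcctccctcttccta

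The last sequences are the forward and reverse probes of 2 regions whose strands are compared below. In the chromosome 4 region the forward and the reverse probe overlap by 36 bases, of which each is the reverse complement of the other, and in the chromosome 7 region the 2 probes lie apart.
chr4:56013597-56020622_F: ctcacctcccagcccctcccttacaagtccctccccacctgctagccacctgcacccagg
chr4:56013597-56020622_R: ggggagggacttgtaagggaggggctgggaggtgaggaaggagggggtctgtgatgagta
chr7:111526943-111545093_F: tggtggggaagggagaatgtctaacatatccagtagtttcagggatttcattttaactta
chr7:111526943-111545093_R: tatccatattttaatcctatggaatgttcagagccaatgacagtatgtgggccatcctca

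The arrays of the groups differed in brightness before scaling. On the linear scale, their 75th percentile ran from 220 to 297 on the AdGFP arrays and from 381 to 448 on the AdLeXis arrays, and no spot was saturated. The groups lie in separate rows of 1 slide scanned once, so row and group cannot be told apart. All 8 hepatocyte markers were kept on all 8 arrays, which accords with the labelled tissue, and their summed linear signal ran from 2084000 to 2193000 in AdGFP and from 1388000 to 1608000 in AdLeXis, with 6 of 8 called lower. Of 12 T and natural killer cell markers 11 were kept, 9 of them called lower, with a summed signal from 16560 to 17690 in AdGFP and from 8436 to 9129 in AdLeXis. Of 10 Kupffer cell and macrophage markers 3 were called lower (sums from 101100 to 133600 and from 83230 to 106700), of 8 stellate cell and fibroblast markers 2, of 5 bile duct markers 1, and of 5 B cell and 6 endothelial markers 0 at the adjusted threshold. In bulk liver, fewer cells of a type and less RNA per cell cannot be told apart, and the part of these shifts in the region results was not tested.

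The region strands were chosen by these background flags, so detection is described and not tested. Of the 3392 expressed region strands 2803 (82.6%) had some probe above background on each of the 8 arrays, and 2749 had 1 probe that was so on all of them. A single AdGFP array detected from 3060 to 3263 of them and a single AdLeXis array from 3231 to 3378. The ranges overlap only through AdLeXis replicate 4, the AdLeXis array with the lowest share of region probes above background (47.1%, against 47.2% on AdGFP replicate 2). In all, 442 region strands were detected on more AdLeXis than AdGFP arrays and 74 on more AdGFP arrays, in a set of arrays whose AdLeXis members were the brighter ones. At the edge of the rule, 120 region strands had 4 arrays as the highest count of any probe, with a median signal of 2.95, and 135 had 3 arrays and were left out, with a median of 2.79. Just inside lay chr1:57410074-57426723_R (mean signal 2.24) and chr2:83517176-83519228_R (2.31), and just outside chr8:67550064-67560987_R (3.44) and chr8:59994074-60002058_R (3.43).

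**Figure D1:**
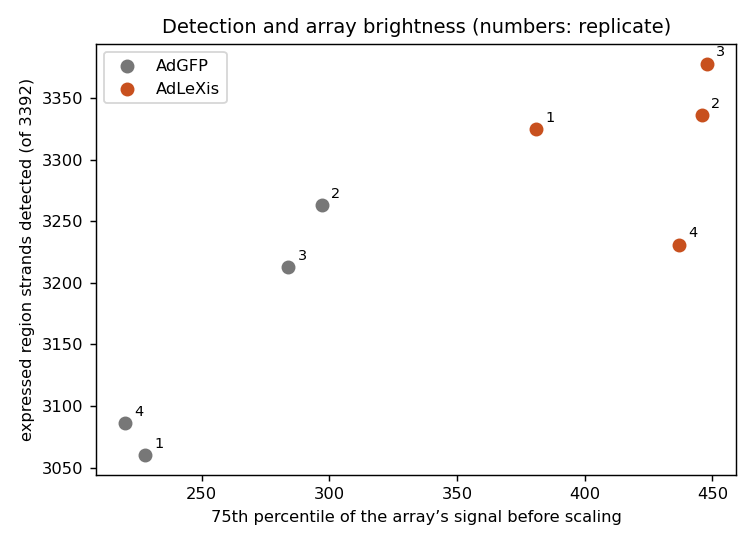
Each point is 1 array; the x axis is the 75th percentile of its processed signal before scaling (linear intensity) and the y axis the number of the 3392 expressed region strands with a probe well above background on it. The AdGFP arrays lie at 220 to 297 and 3060 to 3263 region strands, the AdLeXis arrays at 381 to 448 and 3231 to 3378.

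Among the expressed region strands 162 rose and 161 fell in AdLeXis samples, 323 of 3392 or 9.52%. Over all genes tested 17.5% were called, 8.72% higher and 8.78% lower, and over the genes that are not region strands 18.8%. The median difference over the region strands was -0.03, against 0.00 over all genes. At least 2-fold, 35 rose and 22 fell (1.03% and 0.649%, against 1.97% and 1.05% of all genes). The 4 AdLeXis arrays lay wholly to one side of the 4 AdGFP arrays for 465 region strands (13.7%), against 24.7% of all genes. Region strands also spread more between arrays of a group: their median SD was 0.24 in both groups, against 0.16 in AdGFP and 0.17 in AdLeXis for other genes. Correlations between arrays over the region strands ran from 0.97 to 0.98 within groups and from 0.952 to 0.975 between groups.

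A region strand whose probe passed on only some arrays had to differ between arrays, so its call gives no support of its own. Where the measured probe was above background on all 8 arrays, 127 of 2727 rose and 156 fell (10.4%; all genes 18.5%). Where it was so on 4 to 7 arrays, 35 of 665 rose and 5 fell; other genes measured at that level showed 192 of 2124 higher and 51 lower. The split between rises and falls also moved with the scaling and background correction: rises were 50.2% of the calls in the setting used here, 29.1% (102 against 249) with each array scaled on its median, and 4.09% (89 against 2087) after normexp background correction with an offset of 50, where 52.8% of all genes were called and the median over all genes was -0.19. Normexp followed by quantile scaling, tried after the data were seen, gave 136 rises and 260 falls. Single arrays moved the counts too. The rises numbered 95 without AdLeXis replicate 4, and the falls 92, 94, 103 and 101 without AdGFP replicates 1, 2, 3 and 4 and 95 and 84 without AdLeXis replicates 2 and 4.

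**Figure D2:**
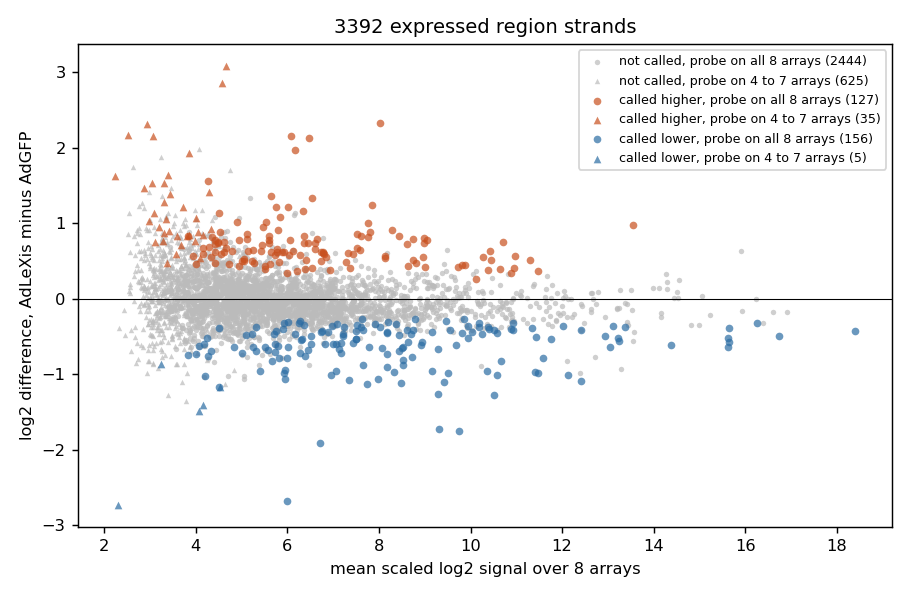
Each point is 1 of the 3392 expressed region strands; the x axis is its mean scaled log2 signal over 8 arrays and the y axis its log2 difference, AdLeXis minus AdGFP, with called rises and falls coloured. Triangles, region strands whose probe was above background on 4 to 7 arrays, hold 35 rises and 5 falls and lie at the dim end; circles hold 127 rises and 156 falls.

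Many region strands overlap others, and are then not separate readings. Merged where they overlap on either strand, they form 1751 loci, 878 of which hold more than 1 expressed region strand. The 323 called region strands lie in 271 loci on 20 chromosomes; 145 loci hold a rise, 142 a fall and 16 both. Called shares by chromosome ran from 5.38% on chromosome 13 to 12.3% on chromosome 17. The probes of a region strand could disagree. Of 243 called region strands with at least 2 kept probes, 173 had all of them on one side of 0, whether or not each was called, and 80 called region strands rest on 1 kept probe. With the mean of kept probes in place of the brightest one, 179 region strands rose and 112 fell, and 205 of the 323 calls were kept in the same direction. At the probe level 723 of 7710 region probes were called (9.38%; all probes 14.8%), 143 of 400 region strands with a called probe and at least 2 kept had 2 called in the same direction, and 5 held a called rise and a called fall on different probes.

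The largest rise was on chromosome 9. The probe of chr9:4260788-4261404_F, a region of 617 bp, read 2.81, 3.20, 3.40 and 3.06 on AdGFP arrays 1 to 4 and 5.97, 6.96, 5.87 and 6.01 on AdLeXis arrays 1 to 4. All AdLeXis arrays lie above all AdGFP arrays, and AdLeXis replicate 2 is the highest. It rose by 3.08 (SE 0.25, adjusted p = 0.000433, 8.48-fold), and its other probe showed 4.35. A probe of it was above background on only 2 AdGFP arrays, and after normexp correction the difference was 0.68. The nearest measured gene is Aasdhppt, a phosphopantetheinyl transferase gene 35.2 kb away, whose difference was -0.20 (SE 0.13, adjusted p = 0.321). Here and below, distances run from the region to the gene's measured probe and not to the bounds of the gene.

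The brightest of the large rises was chr4:149445201-149445902_F, 702 bp long. It read 6.95, 6.83, 7.11 and 6.54 in AdGFP and 9.35, 9.17, 8.99 and 9.27 in AdLeXis, a gap far wider than the spread within either group. It rose by 2.33 (SE 0.14, adjusted p = 0.000167, 5.04-fold), its 3 probes ran from 2.14 to 2.33, and it stayed called in all 22 alternative settings tried, with values from 1.96 to 2.42. Gpr157, a G protein-coupled receptor gene 33.8 kb away on the same strand, was at -0.23 (SE 0.13, adjusted p = 0.252).

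A pair of overlapping region strands on chromosome 6 lies beside Cdkn1b, the gene of the cell-cycle inhibitor p27, and over Lockd, a long non-coding RNA made downstream of it. The larger, chr6:134875724-134931975_F (56252 bp), read 4.77, 5.01, 5.16 and 5.07 in AdGFP and 7.19, 6.84, 7.24 and 7.39 in AdLeXis, a rise of 2.16 (SE 0.14, adjusted p = 0.000235). The smaller, chr6:134879009-134880130_F, read 5.59, 5.52, 4.87 and 5.63 in AdGFP and 7.54, 7.33, 7.52 and 7.70 in AdLeXis, a rise of 2.12 (SE 0.18, adjusted p = 0.000519); the other of its 2 kept probes was at -0.08, and their mean gave 1.02. Lockd itself, with its probe inside the larger region on the same strand, rose by 1.92 (SE 0.11), from 8.03 ± 0.15 to 9.95 ± 0.16 (SD, n = 4). Cdkn1b, 3.53 kb from the smaller region, rose by 0.36 (SE 0.07, adjusted p = 0.0136). Read as a difference of differences, the smaller region strand exceeded Cdkn1b by 1.76 (SE 0.20, adjusted p = 0.00134), whereas the larger and Lockd differed by 0.24 (SE 0.17, adjusted p = 0.355).

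The reverse-strand region chr1:135956616-135957485_R (870 bp) read 5.09, 5.14, 5.34 and 5.18 in AdGFP and 7.14, 7.27, 6.79 and 7.41 in AdLeXis. It rose by 1.96 (SE 0.14, adjusted p = 0.000326); its 3 probes ran from 0.83 to 1.96, and their mean was not called (adjusted p = 0.137). Fmod, which encodes the collagen-binding proteoglycan fibromodulin and lies 12.6 kb away, was at -0.05 (SE 0.20).

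The other large rises were of dim probes. On chr17:29571806-29603008_F, 27.7 kb from the kinase gene Pim1, the AdGFP arrays read 3.84, 4.15, 3.78 and 0.78 and the AdLeXis arrays 4.85, 6.58, 6.00 and 6.58. Its difference of 2.86 (SE 0.75, adjusted p = 0.0348) takes in the low AdGFP replicate 4, without which it was 2.08, and lost its call when any of AdGFP replicates 1 and 3 and AdLeXis replicates 2, 3 and 4 was left out (adjusted p from 0.0538 to 0.0892). On chr9:121846340-121848578_F the arrays read 2.63, 1.15, 2.91 and 1.27 in AdGFP and 3.70, 4.53, 3.88 and 4.48 in AdLeXis, a rise of 2.16 (SE 0.43, adjusted p = 0.0123), not called with the replicate number as a block (adjusted p = 0.0511). Next to it 1700048O20Rik, above background on 1 AdGFP array, was at 1.96 (SE 0.56, adjusted p = 0.0455). That call was lost under median, quantile and cyclic loess scaling and without any single array except AdGFP replicate 2 (adjusted p from 0.0574 to 0.108). The measured probe of chr14:65785477-65815777_F was above background on 0 AdGFP arrays and another of its probes on 1, so no size is given; it read 1.08, 2.13, 1.34 and 1.22 in AdGFP and 4.86, 3.40, 2.93 and 3.25 in AdLeXis (limma adjusted p = 0.0112). On chr5:52581905-52637135_F the arrays read 2.97, 3.08, 3.48 and 1.99 in AdGFP and 5.18, 4.76, 4.66 and 4.64 in AdLeXis. The rise was 1.93 (SE 0.30), on a probe above background on 1 AdGFP and 4 AdLeXis arrays. Nearest to the chromosome 14 region strand was the Wnt receptor gene Fzd3, at -0.09 (SE 0.30). Fzd3 was above background on only 2 AdGFP and 3 AdLeXis arrays. Nearest to the chromosome 5 region strand was the RNA helicase gene Dhx15, at 0.05 (SE 0.15). After normexp correction the last 3 of these region strands had differences of -0.20, -0.27 and -0.11, none of them called.

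Where no probe of a region strand was above background on any array of one group, a floor fold is given. It sets the brighter group's mean against a floor for the dark group. On each array the floor is the dimmest signal of any probe well above background or, if higher, the dark probe's own. For the named region strands the floor fold equals or lies just under the fitted fold (3.04 against 3.08 for chr1:57410074-57426723_R). It is therefore close to an estimate from undetected signal and is not a firm lower limit. In all, 14 region strands were dark on all AdGFP arrays, each with a probe above background on all 4 AdLeXis arrays, and 1 was dark on all AdLeXis arrays. Of the 14, 8 were called, against 9.52% of all expressed region strands. The 14 passed the filter only through the AdLeXis arrays, so their calls and adjusted p values give no support of their own. The highest floor fold was 4.97, higher in AdLeXis, for chr15:32708654-32725622_F. It read 2.02, 1.34, 1.34 and 2.40 in AdGFP and 3.44, 4.23, 4.55 and 4.14 in AdLeXis (limma adjusted p = 0.00258). Its nearest measured gene, the semaphorin gene Sema5a, lies 82.6 kb away. The median floor fold over the 14 was 1.91. It was 3.04 for chr1:57410074-57426723_R, 2.75 for chr12:88172043-88172731_R, 2.61 for chr4:119811853-119832606_F and 2.33 for chr8:56200419-56205756_F, the last not called (adjusted p = 0.0721). chr12:88172043-88172731_R, at an adjusted p of 0.0494, lost its call in 16 of 21 alternatives and changed sign in 1, the losses including leaving out AdGFP replicate 1, 2 or 4 or any AdLeXis array. All 5 of these region strands changed sign after normexp correction. There chr1:57410074-57426723_R, chr12:88172043-88172731_R and chr8:56200419-56205756_F were called lower in AdLeXis, at -0.40, -0.37 and -0.38 (limma adjusted p = 0.0095, 0.016 and 0.0123). The others were not called.

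The region strand dark on all AdLeXis arrays was chr2:83517176-83519228_R, 2053 bp long. It read 3.73, 2.87, 4.17 and 3.92 in AdGFP and 0.59, 0.39, 2.15 and 0.63 in AdLeXis, a floor fold of 6.52, lower in AdLeXis (fitted difference -2.73, SE 0.42, adjusted p = 0.00477). It passed the filter only through the AdGFP arrays, so its call gives no support of its own. The groups do not overlap, with AdLeXis replicate 3 the nearest to the AdGFP arrays. Zc3h15, a zinc finger protein gene 12.8 kb away, was at -0.07 (SE 0.09).

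The largest fall of a bright probe was chr4:116790373-116797823_R. It read 7.46, 7.66, 7.23 and 6.98 in AdGFP and 4.81, 4.99, 4.10 and 4.71 in AdLeXis, so it fell by 2.68 on the log2 scale (SE 0.21, adjusted p = 0.000433, 6.41-fold). Its 5 kept probes all lie below 0 but reach from -2.68 to -0.48, and their mean gave -1.53. The overlapping chr4:116791819-116798263_R read 9.90, 10.07, 9.90 and 9.81 in AdGFP and 8.80, 8.50, 8.57 and 8.77 in AdLeXis, and fell by 1.26 (SE 0.10, adjusted p = 0.000443). Both lie on the strand of Btbd19, a gene for a BTB-domain protein whose probe is inside both regions and which fell by 1.51 (SE 0.11, with its other kept probe at -0.27), from 9.04 ± 0.18 to 7.53 ± 0.11 (SD, n = 4). The first exceeded the fall of Btbd19 (difference -1.17, SE 0.23, adjusted p = 0.0116; -0.64 and not called over the mean of kept probes, adjusted p = 0.0896), and the second differed from it by 0.25 (SE 0.13, adjusted p = 0.215).

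The forward strand of chr2:119697845-119719245 fell by 1.91 (SE 0.20, adjusted p = 0.00117): chr2:119697845-119719245_F read 7.52, 7.32, 8.03 and 7.81 in AdGFP and 5.75, 5.78, 6.14 and 5.38 in AdLeXis. Its 3 kept probes ran from -1.99 to -1.68, and Tyro3, a receptor tyrosine kinase gene 54.0 kb away on the same strand, was at 0.28 (SE 0.14, adjusted p = 0.197). On chromosome 17 the 2 overlapping regions gave nearly the same readings. chr17:32044823-32045974_R read 10.76, 10.38, 10.66 and 10.68 in AdGFP and 9.52, 8.88, 8.67 and 8.38 in AdLeXis, and fell by 1.76 (SE 0.23, adjusted p = 0.00238), and chr17:32035750-32056000_R fell by 1.73 (SE 0.23). All 5 of their kept probes lay between -1.78 and -1.73. Hsf2bp, the nearest measured gene at 25.8 kb from the larger region, was at 0.38 (SE 0.16, adjusted p = 0.152). Its probe was dim, at 3.14 in AdGFP and 3.52 in AdLeXis, and above background on only 2 AdGFP arrays. The difference of the larger region strand from Hsf2bp was -2.11 (SE 0.25, adjusted p = 0.00142) and rests in part on that dim probe.

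The forward strand of the region next to the RNA-binding protein gene Rbm26 was a bright one. chr14:105497388-105511063_F read 11.28, 11.14, 10.96 and 11.22 in AdGFP and 9.86, 9.67, 10.07 and 9.91 in AdLeXis, and fell by 1.27 (SE 0.11, adjusted p = 0.000572), with its other kept probe at -0.13 and the mean of both at -0.70. Rbm26, 2.89 kb away, was at -0.03 (SE 0.07). Of the remaining named falls, chr15:59966962-59972812_R (-1.49, SE 0.13), chr5:74340084-74346709_R (-1.41, SE 0.29) and chr17:17492400-17507525_F (-1.17, SE 0.14) each had the groups apart in all 8 readings and stayed called in every alternative run on them. chr14:77042348-77042645_R fell by 1.13 (SE 0.14), but its other kept probe was at 0.34 and the mean of both was not called (adjusted p = 0.0506). chr14:106562325-106660675_F fell by 1.17 (SE 0.33, adjusted p = 0.0443), and its other kept probe, the one above background on all 8 arrays, was at 0.02; the call was lost without any single array except AdLeXis replicate 2 (adjusted p from 0.0534 to 0.102).

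**Figure D3:**
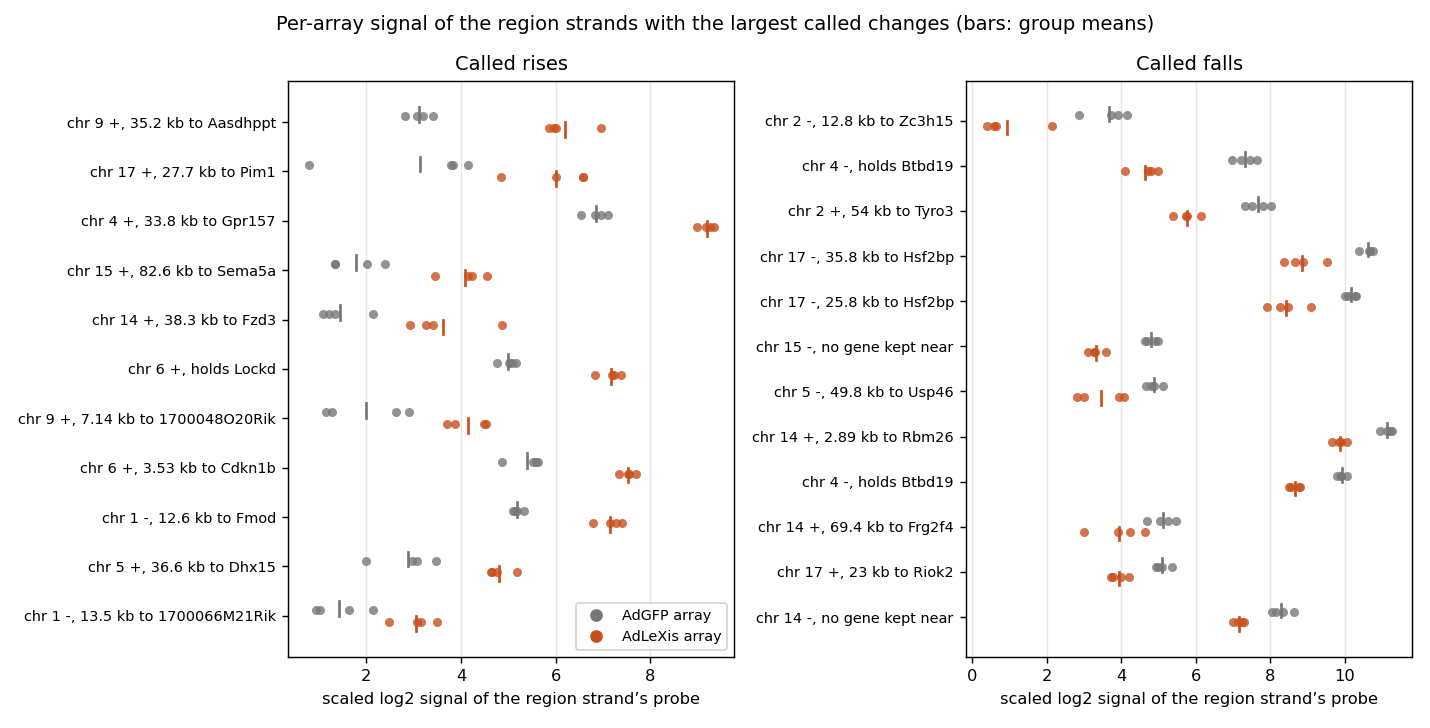
Each row is 1 region strand, named by chromosome, strand and nearest measured gene; the x axis is the scaled log2 signal of its probe, grey points are the 4 AdGFP arrays, orange points the 4 AdLeXis arrays and the short bars the group means. The 11 rises shown on the left have all AdLeXis arrays above all AdGFP arrays and the 12 falls on the right all below, which was part of how they were chosen; the spread is widest in dim rows such as the one near Pim1, where AdGFP replicate 4 reads 0.78.

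Both strands were on the array for 1067 regions and measured for 717. The difference between the changes of the strands, taken within each array so that the probes' own brightness cancels, was called for 15 regions, 2.09% of those tested, in 6 of them with the forward strand higher; 123 had an unadjusted p under 0.05. For 591 regions neither strand was called, for 116 one was, and for 10 both were, 6 in the same and 4 in opposite directions. Across the 717 regions the changes of the strands had a Pearson correlation of 0.094; these points share arrays and many share a locus. The count of 15 was 7 when AdGFP replicate 2, AdGFP replicate 4 or AdLeXis replicate 3 was left out, 9 without AdLeXis replicate 4 and 10 with the mean of kept probes. It was 25 among probes above background on all 8 arrays, and 140 after normexp correction.

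The region over Btbd19 gave the largest strand difference. The forward strand of chr4:116790373-116797823 read 7.28, 7.48, 7.63 and 7.85 in AdGFP and 7.61, 7.19, 7.60 and 7.50 in AdLeXis, overlapping groups with a difference of -0.09 (SE 0.15), beside the difference of -2.68 on the reverse strand. The strands differed by 2.59 (SE 0.33, adjusted p = 0.00538). In chr14:105497388-105511063 the forward strand fell as given above and the reverse strand, at -0.01 (SE 0.09), did not pass the test (strand difference -1.27, SE 0.18, adjusted p = 0.00538).

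In 3 of the named regions the strands moved in opposite directions, each past the test. The forward strand of chr7:111526943-111545093 read 10.27, 10.00, 10.17 and 9.99 in AdGFP and 10.72, 10.72, 10.76 and 10.75 in AdLeXis, a rise of 0.63 (SE 0.09), and its reverse strand 8.96, 9.09, 9.00 and 8.81 against 8.43, 8.18, 7.82 and 7.91, and fell by 0.88 (SE 0.14). The strands differed by 1.51 (SE 0.20, adjusted p = 0.00538). Trim30c, a gene of the TRIM family on the reverse strand inside this region, fell by 0.68 (SE 0.17, adjusted p = 0.03). Its probe overlaps the reverse-strand probe on the same strand, so its fall is not a separate reading of that strand. The other forward probe was at -1.01, a called fall, and the mean of both probes gave -0.19. In chr19:57426515-57435165 the forward strand fell by 0.44 (SE 0.08) and the reverse strand rose by 0.83 (SE 0.11), all 5 reverse probes lying between 0.52 and 0.87. In chr11:120079199-120130099 the forward strand fell by 0.50 (SE 0.10) and the reverse strand rose by 0.86 (SE 0.13). Taken over the mean of all kept probes, none of these 3 strand differences was called (adjusted p from 0.0826 to 0.128).

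Where the 2 probes cover the same bases, in chr4:56013597-56020622, the forward strand read 13.18, 12.94, 12.88 and 12.84 in AdGFP and 11.99, 11.60, 12.12 and 11.78 in AdLeXis, and fell by 1.08 (SE 0.13, adjusted p = 0.00206). The reverse strand read 4.82, 3.76, 4.32 and 3.77 against 4.65, 4.18, 4.54 and 4.18, with the groups overlapping and a difference of 0.22 (SE 0.25). The strand difference was -1.31 (SE 0.22, adjusted p = 0.0158) and lost its call when any of AdGFP replicates 2 and 4 and AdLeXis replicates 1, 2 and 3 was left out (adjusted p from 0.0503 to 0.0538). The remaining named strand differences were -1.33 (SE 0.19) in chr6:117827499-117851478, whose forward strand fell by 1.07 on a probe that its other kept probe, at 0.68, did not follow, and -1.09 (SE 0.18, adjusted p = 0.0152) in chr2:71576218-71603818, whose reverse strand rose by 0.74 (SE 0.12). The latter was not called without AdGFP replicate 2 (adjusted p = 0.053), and was 0.08 after normexp correction. Bright regions without a called strand or strand difference were chr11:22681800-22707775 (strand difference -0.26, SE 0.16), chr17:39960567-39992817 (-0.30, SE 0.22) and chr7:108209996-108216032 (0.05, SE 0.18).

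**Figure D4:**
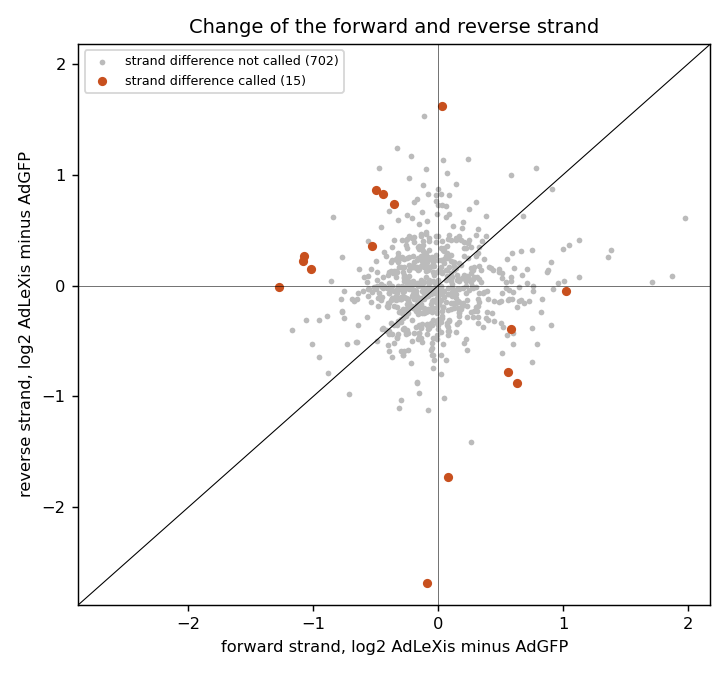
Each point is 1 of 717 regions measured on both strands; the axes are the log2 difference, AdLeXis minus AdGFP, of the forward (x) and reverse (y) strand, and the diagonal marks equal change. The 15 regions with a called strand difference, in orange, lie away from the diagonal, the lowest being the region over Btbd19 at -0.09 and -2.68; the cloud as a whole has a correlation of 0.094.

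Each region strand was set beside the nearest measured named gene within 100 kb by probe coordinates, which gave 2830 pairs. Over all of them the changes of region strand and gene had a Pearson correlation of 0.088; over 16835 pairs of other genes and their neighbours it was 0.132. Of 276 called region strands with such a gene, 64 (23.2%) had a called neighbour too, 48 in the same direction. Over all member pairs 17.5% of neighbours were called. For other genes, 889 of 3274 called ones (27.2%) had a called neighbour, 601 in the same direction. The difference between region strand and gene was called for 324 pairs (11.4%), against 17.4% over all pairs fitted and 18.4% over the pairs of other genes. With the neighbour sought within 10 kb only, 152 were called. Pairs share genes and arrays, so these correlations describe the arrays and carry no test.

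The pairs were also split by where the gene's probe lay. With the gene's probe inside the region the correlation was 0.33 over 464 pairs, and 23 of 26 doubly called pairs had the same direction. Within these, it was 0.479 over the 271 pairs on the same strand, where 22 of 40 called region strands had a called gene (20 in the same direction), and 0.075 over the 193 on opposite strands. Pairs of other genes on the same strand had a correlation of 0.187 over 7663, and 432 of 1433 called ones had a called neighbour, 335 in the same direction. With the gene outside the region it was 0.037 over 2366 pairs, and 25 of 38 doubly called pairs had the same direction. Outside but on the same strand within 10 kb it was 0.151 over 485 pairs, and beyond 10 kb -0.035 over 823. In some same-strand pairs the probes of region strand and gene overlap, so both read partly the same bases. The differences between these correlations were not tested.

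**Figure D5:**
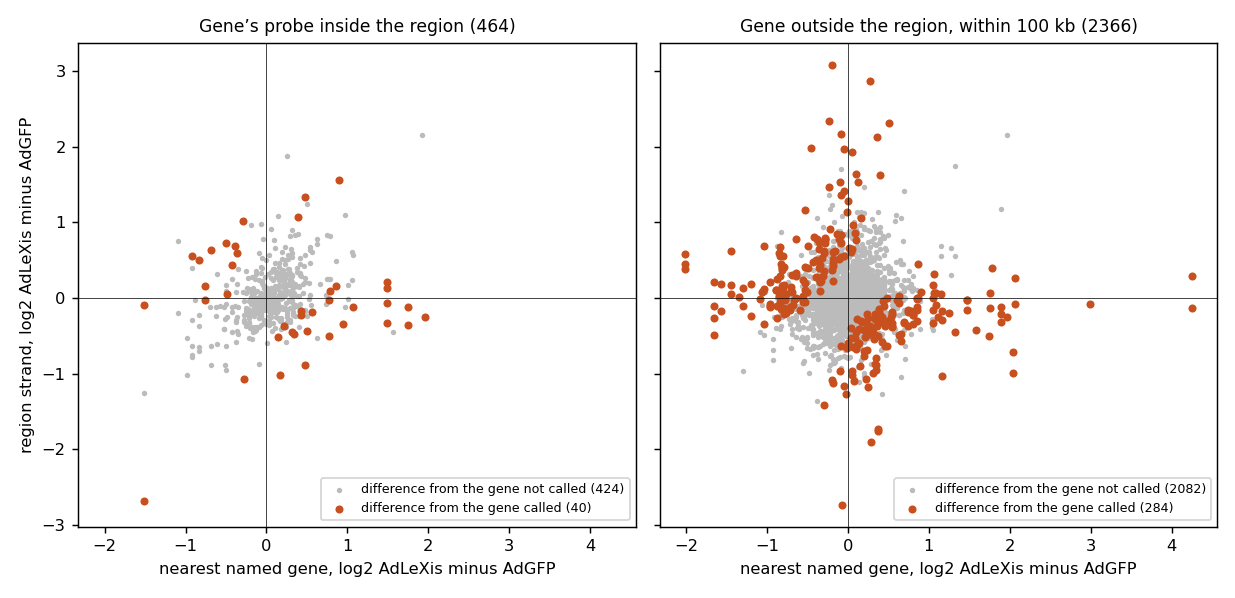
Each point is a region strand and its nearest measured named gene; the x axis is the log2 difference of the gene, the y axis that of the region strand, AdLeXis minus AdGFP, for genes with their probe inside the region (left, 464) and outside within 100 kb (right, 2366). Orange marks pairs whose difference of differences was called, 40 and 284; the correlation is 0.33 on the left and 0.037 on the right.

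Among region strands that moved with a gene on their own strand, chr6:86776350-86799379_R rose by 0.82 (SE 0.11, adjusted p = 0.00319) and 2610306M01Rik inside it by 0.78 (SE 0.13). It read 7.13, 7.31, 7.52 and 7.44 in AdGFP and 8.20, 8.04, 8.08 and 8.36 in AdLeXis, its 5 probes lay between 0.78 and 0.92, and it differed from the gene by 0.03 (SE 0.11). Its probe and that of the gene overlap on the same strand, so they are close to repeat readings and their agreement is no separate support. chr10:117021051-117038683_F rose by 1.02 (SE 0.11) with 5 probes between 0.64 and 1.02, and Cpm, the gene of carboxypeptidase M 83.2 kb away, by 0.58 (SE 0.14).

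Further doubly called pairs were picked out after their values were seen. chr6:57583950-57624216_F fell by 1.01 (SE 0.15), from 11.08 ± 0.25 to 10.06 ± 0.19 (SD, n = 4), and Herc6, a ubiquitin ligase gene inside it on the same strand, by 0.98. Of 6 region strands whose nearest measured gene was Morrbid, a long non-coding RNA known for its role in short-lived myeloid cells, 5 fell and 0 rose, beside a fall of Morrbid itself (-0.93). Those 6 lie in 3 loci and some are nested, so they are not separate readings. Markers of T and natural killer cells and some of macrophages were lower in the same samples, by the sums given above, and their part in these falls was not tested.

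Other called region strands lay beside a gene with a difference of the opposite sign. chr10:87541696-87547421_R fell by 0.98 (SE 0.16), reading 11.84, 12.02, 12.12 and 11.85 in AdGFP and 10.96, 11.03, 11.35 and 10.54 in AdLeXis, and its forward strand fell by 0.71 (SE 0.15). The first was not called with the mean of kept probes (adjusted p = 0.067), nor the second with the replicate number as a block (adjusted p = 0.0633). Parpbp, the gene of a PARP1-binding protein 7.40 kb away, read 3.16, 3.56, 1.13 and 1.46 in AdGFP, above background on 1 array, and 4.17, 4.32, 4.21 and 4.77 in AdLeXis. Its call (adjusted p = 0.0329) was lost when AdGFP replicate 3, AdGFP replicate 4 or any AdLeXis array was left out, and no difference from the region is given. chr8:87513394-87514107_R rose by 0.78 (SE 0.16, adjusted p = 0.0136; 0.30 and not called over the mean of its 2 probes) and Junb, the gene of an AP-1 transcription factor subunit 11454 bp away on the same strand, fell by 0.65 (SE 0.17, adjusted p = 0.0348), a call lost without any single array except AdGFP replicate 2. chr3:10088209-10089038_F was at 0.58 (SE 0.14, adjusted p = 0.0231; a call that needed AdGFP replicates 1 and 2 and AdLeXis replicates 3 and 4) and Fabp5, a fatty acid-binding protein gene 72.0 kb away, fell by 2.01 (SE 0.17), a difference of 2.59 (SE 0.23, adjusted p = 0.00071). chr6:149232359-149235295_R fell by 1.03 (SE 0.24, adjusted p = 0.0216; a call that needed AdGFP replicate 1 and AdLeXis replicates 2 and 3) and Resf1, a retroelement silencing factor gene, rose by 1.16 (SE 0.15).

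Long non-coding RNAs with names of their own were read from a list of 65, of which 35 were measured: 5 rose and 1 fell, 17.1% against the 17.5% of all genes, with a median of 0.16. H19, an imprinted RNA abundant in fetal liver, read 2.59, 3.68, 4.04 and 3.58 in AdGFP and 8.02, 7.09, 6.29 and 7.18 in AdLeXis, a rise of 3.67 (SE 0.40, adjusted p = 0.00134); its 6 kept probes ran from -0.29 to 3.77. The snoRNA host genes Snhg15 and Snhg7 rose by 0.85 (SE 0.09) and 0.47 (SE 0.08), the microRNA host gene Mir17hg by 0.43 (SE 0.08) and the X-linked Firre by 0.48 (SE 0.09). Firre was not called with the mean of its 2 kept probes (0.22, adjusted p = 0.148) or with the replicate number as a block (adjusted p = 0.051). Mir22hg, a microRNA host gene, fell by 0.70 (SE 0.16, adjusted p = 0.0215).

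Of 59 expressed region strands whose region holds a listed RNA on either strand, 3 rose and 3 fell. That is 10.2%, against 9.52% of all expressed region strands and 17.5% of all genes. Each called one of these lies on the strand opposite to its listed RNA. Holding was judged by probe coordinates, so a region strand within a listed RNA but away from its probe is not counted. chrX:47890565-47915775_F, opposite in strand to Firre, rose by 1.34 (SE 0.21, adjusted p = 0.00523), from 5.87 ± 0.36 to 7.21 ± 0.32 (SD, n = 4), and exceeded Firre by 0.86 (adjusted p = 0.0122). The overlapping chrX:47893703-47996700_F was at 0.21 (SE 0.36, adjusted p = 0.74) and held a called rise and a called fall on different probes. chr11:6421951-6429173_F, opposite to Snhg15, rose by 0.49, and the reverse strand, on which Snhg15 lies, was at 0.15 (adjusted p = 0.381). chr15:32167516-32174417_F, opposite to Snhg18, rose by 0.61 (SE 0.16, adjusted p = 0.033). The region strand chr15:32167516-32174427_F, with nearly the same bounds, was at -0.004 (adjusted p = 0.995). The 3 falls are all of forward strands within chr19:5771425-5848475, so they are not separate readings. This region spans Neat1, the scaffold of paraspeckles, and Malat1, an abundant nuclear RNA, both on the reverse strand. Its forward strand, chr19:5771425-5848475_F, fell by 1.02 (SE 0.13, adjusted p = 0.00235), from 12.63 ± 0.16 to 11.61 ± 0.21 (SD, n = 4), while its reverse strand was at 0.15, Neat1 at 0.16 (adjusted p = 0.67) and Malat1 at 0.33 (adjusted p = 0.116).

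The 6 region strands with the highest signal showed small differences, all below 0 in this scaling. Whether their probes also match transcripts made elsewhere in the genome was not tested. The highest, chr1:193875525-193978800_R, read 18.77, 18.63, 18.47 and 18.61 in AdGFP and 18.21, 18.14, 18.15 and 18.26 in AdLeXis, a difference of -0.43 (SE 0.09, adjusted p = 0.0123), which was 0.09 with quantile scaling and 0.03 after normexp correction; its other probe was at 0.35, and Rcor3, a transcriptional corepressor gene inside the region, rose by 0.51 (SE 0.12). chr19:5801802-5802597_R was at -0.49 (SE 0.13, adjusted p = 0.04). It lies 6.03 kb from the measured probe of Malat1 (at 0.33), on the same strand and on that probe's 5' side. Gene bounds were not used, so whether it lies within Malat1 cannot be told from these coordinates. chr6:116092274-116144199_F was at -0.32 (SE 0.08, adjusted p = 0.0313). Neither was called with quantile or cyclic loess scaling. Nor was either called without any single array other than AdLeXis replicate 1 and, for the chromosome 19 one, AdGFP replicate 2. The other 3 were not called, with differences of -0.17, -0.18 and -0.32.

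The probes were searched for the hexamer of the polyadenylation signal. The hexamer AATAAA, searched in the sense of the transcript in the 60 bases of each probe, was in 3.5% of 7711 region probes above background on 4 or more arrays and in 13.5% of 26755 such probes of other genes. Among the probes that measured region strands it was in 16 of 162 rises (9.88%), 5 of 161 falls (3.11%) and 105 of 3069 without a call (3.42%). Among other genes it was in 17.8% of rises, 15.0% of falls and 13.8% without a call. The reverse complement TTTATT was in 4.32%, 2.48% and 2.18% of the region groups. These shares were chosen for description after calls were known and were not tested, and a match in a probe is not evidence of a used signal. Median GC content was 45% in all 3 groups. The regions of the rises had a median length of 7534.5 bp, those of the falls 13526 bp, all expressed ones 11276 bp and those not expressed by the rule 7985 bp.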

How the data were processed

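Per the file headers, the deposited scanner files hold processed spot intensity on a linear scale, background-subtracted by the authors' Agilent Feature Extraction 11.5.1.1 run with no scaling across arrays. The table of values equals the same intensity (relative difference 0), with column medians from 12.7 to 27.7. Background, saturation and outlier flags were used as deposited. How the probes were designed is not given in the sources used here.

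Log2 signals were scaled by array on the 75th percentile of non-control spots, and outlier spots were then left out. Probes were kept (34468) if 4 or more arrays had them well above background and each group had 2 or more arrays with a value. Each gene or region strand was represented by its kept probe of highest mean, so probes of 1 region can disagree. Names were updated through RefSeq (27737 probes by accession, 3662 by symbol; 24282 kept the file's name). Probe strand in the files matched RefSeq's for 99.4% of 12860 genes. Groups were compared with limma 3.58.1 (lmFit, eBayes; R 4.3.3), two-sided, also for strand and neighbour differences, and the code was tested on simulated data. Named items were the 12 largest called rises and falls without overlap, up to 6 floor folds, the 6 brightest and up to 8 strand differences with 3 uncalled bright regions. Up to 6 pairs of each kind with a neighbour and 8 listed RNAs were named too. Other names are said to be chosen after seeing values or are regions holding a listed RNA. The regions, rule and lists were chosen with earlier results of these data known. Some items the rules select are counted but not reported by name here. Precision is limited by 4 arrays a group. Alternatives in scaling, background, filters, probe choice and arrays are given in the closing section.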

Additional observations from a re-analysis of the deposited data

Results flagged for a closer look

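Among the named region strands and listed RNAs, 134 groups of 4 arrays were looked at for 1 array far from the other 3, and 8 had one; chance alone gives about 1 in 20 groups. For chr17:29571806-29603008_F it was AdGFP replicate 4, at 0.78 against 3.78 to 4.15 on the other AdGFP arrays. For chr2:83517176-83519228_R it was AdLeXis replicate 3, at 2.15 against 0.39 to 0.63, and for chr9:4260788-4261404_F AdLeXis replicate 2, at 6.96 against 5.87 to 6.01. chr6:134879009-134880130_F had AdGFP replicate 3 at 4.87 against 5.52 to 5.63. chr6:149232359-149235295_R had AdLeXis replicate 4 at 4.21 against 3.49 to 3.55. chr10:117021051-117038683_F had AdGFP replicate 4 at 5.23 against 4.93 to 4.98, and chr10:87541696-87547421_F AdGFP replicate 2 at 5.11 against 5.44 to 5.50. The reverse strand of chr17:39960567-39992817 had AdGFP replicate 3 at 13.20 against 13.45 to 13.49. These 8 fall on 6 different arrays.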

How the results depend on the processing

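Probes were 60 bases and dim ones limited the reading: signal over background, not array number alone, set which region strands could be compared. Median scaling gave 102 rises and 249 falls of region strands; no filter on dim probes 98 and 82, with 408 called region probes and 151 called neighbour differences; normexp correction (offset 50) 89 and 2087, with 5408 region probes, 140 strand and 985 neighbour differences and 4 listed RNAs lower. Normexp adds a constant before scaling, and the AdGFP arrays were dimmer before scaling. Normexp with quantile scaling, chosen after seeing the data, gave 260 falls, 89 strand and 585 neighbour differences. Probes on all 8 arrays gave 25 strand differences, and neighbours within 10 kb 152. The mean of kept probes and a variance trend each gave 2 listed RNAs lower. The cause of these shifts was not tested. Leaving out 1 array gave 95 to 148 rises, 84 to 180 falls, 393 to 726 called region probes, 7 to 14 strand differences, 196 to 309 neighbour differences, and 5 to 6 listed RNAs higher and 0 to 2 lower. Replicate numbers do not pair the samples: deviations of same-numbered arrays correlated at 0.013, 0.066, 0.117 and -0.001. With the replicate number as a block, 126 region strands rose and 121 fell. Detection on 2 or more arrays gave 3726 region strands and on all 8 arrays 2749. Reversals under normexp correction were chr15:32708654-32725622_F at -0.23, chr14:65785477-65815777_F at -0.27, chr9:121846340-121848578_F at -0.20, chr5:52581905-52637135_F at -0.11, chr1:57410074-57426723_R at -0.40, chr12:88172043-88172731_R at -0.37, chr4:119811853-119832606_F at -0.28, chr8:56200419-56205756_F at -0.38, chr1:193875525-193978800_R at 0.03, the reverse strand of chr2:71576218-71603818 at -0.12 with its strand difference at 0.08, the reverse strand of chr4:56013597-56020622 at -0.43, chr3:10088209-10089038_F at -0.11, 1700048O20Rik at -0.28, Hsf2bp at -0.49, Riok2 at 0.34, Parpbp at -0.17, and chr6:134875724-134931975_F minus Lockd at -0.77 (-0.52 with quantile scaling added). With quantile scaling chr1:193875525-193978800_R was at 0.09, and with normexp and quantile at 0.41, where chr14:78924115-78938125_F was at 0.36. With the mean of kept probes chr7:111526943-111545093_F was at -0.19, and with probes on all 8 arrays chr14:106562325-106660675_F at 0.02. Of 2793 values of 128 named results under alternatives, 2525 kept direction and side of the threshold, 158 lost and 27 gained a call, 59 changed sign without a call in either setting and 24 were the reversals above.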
